A study of Mus musculus with 2 samples.

Results

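Sall4, Twist1, Nes, Sox11, Igfbpl1, Bex4 and Mmp2 are 7 genes known mainly from embryonic, neural and mesenchymal cells. They were followed well by well in epithelial cells of the small intestine, sorted from mouse organoids treated with the small molecule ISX-9 or with its solvent. The 7 genes were chosen by name, out of 16943 nuclear genes with a row in the deposited tables, because earlier results of these data had shown them higher with ISX-9. Their difference between the treatments is therefore given as a description, with no test.

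Both groups were cells sorted for red fluorescence from organoids grown from the jejunum and ileum of mice homozygous for the Neurog3-RFP (Ngn3-RFP) reporter allele. One group was treated with DMSO, the solvent control, for 48 h, and the other with ISX-9 (isoxazole 9, a compound known for inducing neuronal differentiation) for 48 h. By SORT-seq, cells went singly into 384-well plates and messenger RNA was counted from the 3' end. There was 1 plate per treatment and the labels do not give the number of animals or organoid lines. Wells from 1 plate cannot stand in for repeated treatments, so the differences between plates have no replicate check.

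Total counts were 21398070 in the DMSO plate and 17062599 in that of ISX-9. Wells with at least 2000 reads outside spike-in and mitochondrial rows and at least 500 genes were kept, 300 in DMSO and 290 in ISX-9, with medians of 26340.0 and 22509.5 such reads. Levels are CPM, the gene's reads scaled to an equal total of such reads, taken over all kept wells of 1 plate unless a single well is named. Their 95% Poisson intervals, and the exact Clopper-Pearson intervals of shares of wells, cover counting error and the drawing of wells only, since amplified copies of 1 molecule are counted more than once. Where a count is 0, the limit it allows is given as 3 wells or 3 reads of the total, not as the upper bound of these intervals. The highest well of a gene is the one with most reads of it, which need not have the highest CPM. The log2 ratio compares CPM + 5, which understates differences of genes with low values. The 384 well numbers are shared by both plates, and no DMSO well with a read of 1 of the 7 genes had a read of that gene in the ISX-9 well of the same number.

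Neurog3 is the factor that sets gut epithelial cells on the path to enteroendocrine, hormone-producing cells. Sall4 and Sox11 encode transcription factors of early embryonic and neural progenitor cells, Twist1 one of mesoderm and of the transition from epithelium to mesenchyme, and Nes the intermediate filament nestin of neural progenitors. Igfbpl1 encodes a secreted relative of the insulin-like growth factor binding proteins, Bex4 a member of the brain-expressed X-linked family, and Mmp2 a secreted enzyme that cuts collagens of the extracellular matrix.

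All 7 genes were at least 2-fold higher in the ISX-9 plate, a difference that chose them and that supports nothing further. Of 13223 genes with at least 20 reads over both plates, 4.97% were that much higher and 0.953% that much lower. In DMSO, Twist1, Nes and Igfbpl1 had no read, and Bex4, Mmp2, Sall4 and Sox11 each had reads in a single well. In ISX-9, each of the 7 was read in 13 to 59 wells. At least 1 of them was read in 139 of the 290 wells given ISX-9 (47.9%, 42.1 to 53.8), whereas only 4 of 300 wells given DMSO had such a read (1.33%, 0.364 to 3.38). Being read in at least 10 wells of ISX-9 and at most 1 of DMSO was shared with other genes: 142 of 11991 genes, or 1.18%, had it, and 15, or 0.125%, had the reverse.

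**Figure D1:**
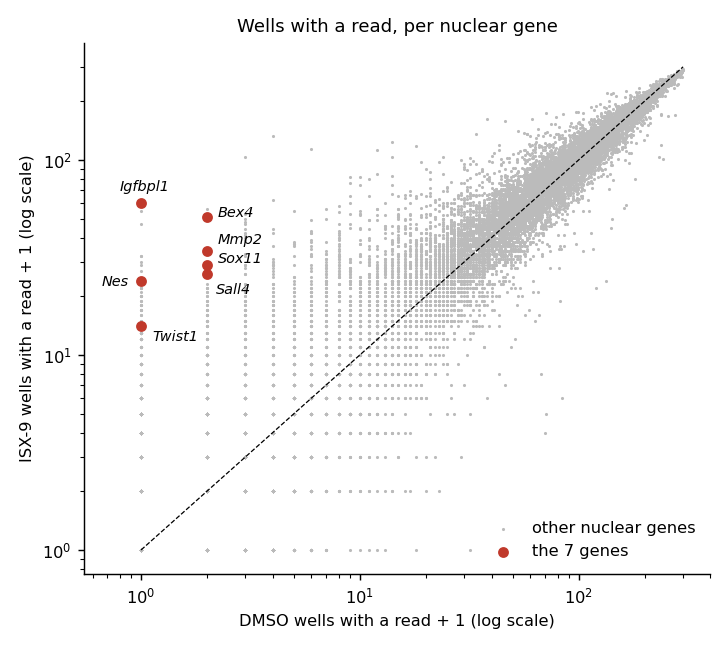
Number of kept wells with a read in the DMSO plate (x axis, 300 wells) and in the ISX-9 plate (y axis, 290 wells), each plus 1 on a log scale, for every nuclear gene (grey) and for the 7 genes (red), with a dashed line at equal numbers. The 7 genes lie at 0 or 1 DMSO well and at 13 to 59 ISX-9 wells, at the left edge of the cloud and well above the line.

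Of the transcription factors, Sall4 (chromosome 2) had 5 reads in 1 DMSO well and 200 reads in 25 ISX-9 wells. Over the wells with a read, its level ran from 6.09 through a median of 152 to 2199.5 CPM. Summed over the plate it stood at 16.9 CPM (14.7 to 19.5) against 0.339 CPM (0.110 to 0.791), a ratio of 50.0 (21.1 to 156) and a log2 ratio of 2.04. These reads were spread over many wells: 3 wells tied for the most, with 17 reads or 8.50% each. The single DMSO well with Sall4 held 793 genes and no Neurog3 read.

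Twist1 (chromosome 12) had no read in DMSO, where 0 of 300 wells allows a share of up to 1.00%, and 168 reads in 13 ISX-9 wells. Levels in those 13 wells ran from 6.09 through 265 to 1048 CPM. The plate level was 14.2 CPM (12.2 to 16.6), and the log2 ratio was 1.94. The value of 14.2 CPM is 70.0 times the DMSO floor of 0.203 CPM, which is 3 reads over the plate. Twist1 was the least widespread of the 7 and the top 3 wells held 50.0% of its reads. Its highest well also had 1127 reads of Neurog3 and 122 of Neurod1, a transcription factor gene that follows Neurog3, with 18 of Igfbpl1 and 13 of Sox11, and 5 of Chgb. Without the highest well of the gene the log2 ratio was 1.70.

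Sox11 (chromosome 12) had 3 reads in 1 DMSO well, which also had 119 reads of Neurog3, and 242 reads in 28 ISX-9 wells. In the ISX-9 wells with a read, levels ran from 10.9 through 98.1 to 1936 CPM. The plate level was 20.5 CPM (18.0 to 23.3) against 0.203 CPM, a ratio of 101 (34.1 to 492) and a log2 ratio of 2.29. The highest Sox11 well was of ordinary depth, 18597 reads, and held 254 reads of Neurog3, 70 of Neurod1 and none of Muc2 or Tph1. Both this well and the only DMSO well with Sox11 were thus wells with many Neurog3 reads.

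Nes (chromosome 3) had no read in DMSO and 185 reads in 23 ISX-9 wells. Levels in the wells with a read ran from 6.07 through 107 to 2510.1 CPM. The plate level was 15.7 CPM (13.5 to 18.1), a value 77.1 times the DMSO floor, with a log2 ratio of 2.05. Its wells were the deepest among the 7 genes, with a median of 84187 reads against 20435 in the other ISX-9 wells. The well with most Nes reads, 29, was of another kind than the highest Twist1 and Sox11 wells: it held 351 reads of the goblet mucin gene Muc2, 334 of the antimicrobial lectin gene Reg3b, 34 of Mki67 and only 7 of Neurog3. Bex4, Igfbpl1, Sox11 and Mmp2 were read there too, which made it 1 of 2 wells with 5 of the genes.

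Among the secreted products, Igfbpl1 (chromosome 4) was the most widespread, with no read in DMSO and 333 reads in 59 ISX-9 wells, 20.3% of them (15.9 to 25.4). Levels in those wells ran from 6.09 through 56.1 to 717 CPM. The plate level was 28.2 CPM (25.3 to 31.4), a value 139 times the DMSO floor, with a log2 ratio of 2.73. No other gene read in at most 1 DMSO well was read in more ISX-9 wells. The well with most reads, 44, also had 1354 of Neurog3 and 78 of Neurod1, and 4 of Chgb.

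Mmp2 (chromosome 8) had 9 reads in 1 DMSO well and 698 reads in 33 ISX-9 wells. Levels in the latter ran from 11.2 through 313 to 4176 CPM, and the DMSO well was at 73.6 CPM, inside that range. The plate level was 59.1 CPM (54.8 to 63.7) against 0.610 CPM (0.279 to 1.16), a ratio of 97.0 (50.8 to 213) and a log2 ratio of 3.52. Its reads were the most concentrated: 1 well held 26.6% of them, and 3 wells 51.1%. That well held hormone transcripts, with 3431 reads of the glucagon gene Gcg, 1625 of the cholecystokinin gene Cck and 406 of the neurotensin gene Nts beside 73 of the epithelial adhesion gene Epcam. The DMSO well with Mmp2 also held hormone transcripts, with 6933 reads of Cck and 8472 of Chgb.

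Bex4 (chromosome X) had a single read in DMSO, in a well of 419189 reads, and 296 reads in 50 ISX-9 wells (17.2%, 13.1 to 22.1). Levels in the ISX-9 wells ran from 6.09 through 60.3 to 809 CPM. The plate level was 25.1 CPM (22.3 to 28.1) against 0.0678 CPM (0.00172 to 0.378), a ratio of 370.1 with an interval of 65.9 to 14665 that reflects the 1 DMSO read, and a log2 ratio of 2.57. Its reads were spread over many wells, with 8.78% in the highest well. That well had 188 reads of Epcam and 29 of the cycling gene Top2a, 9 of Neurog3 and none of Tph1.

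**Figure D2:**
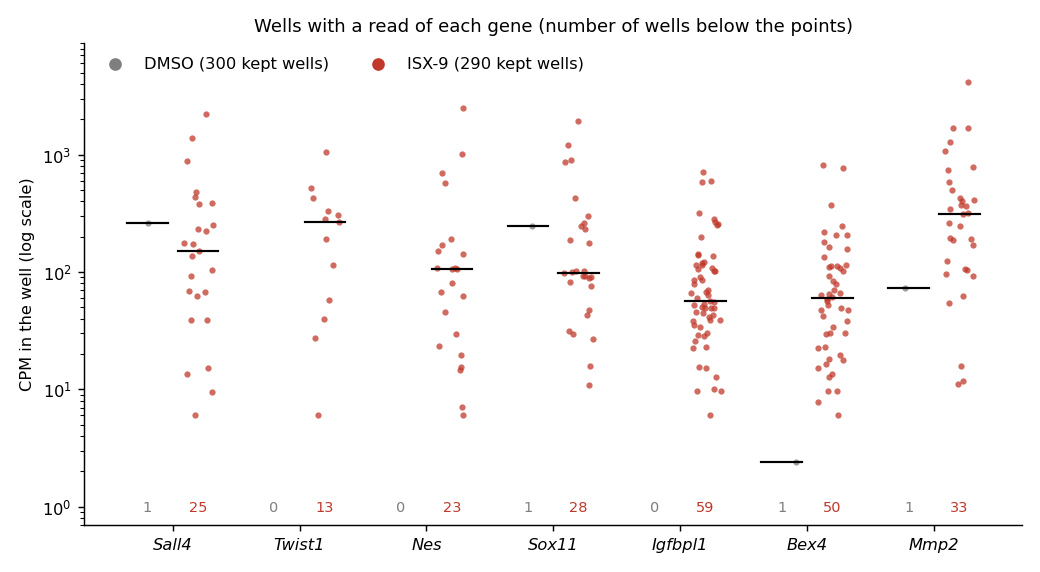
Level of each gene in every kept well with a read of it (y axis, CPM in the well, log scale), for the DMSO plate (grey) and the ISX-9 plate (red), with the median as a black line and the number of such wells below the points. The 4 DMSO wells stand alone, and levels in ISX-9 run from 6.07 to 4176 CPM.

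The share of wells with a read depends on depth. ISX-9 wells with at least 1 of the genes had a median of 43004 reads and those with none 9204. With every well thinned to 2000 reads, the expected share of wells with any of the 7 was 19.2% in ISX-9 and 0.326% in DMSO, and per gene in ISX-9 it ran from 1.65% for Twist1 to 5.43% for Mmp2. Among wells with at least 30000 reads, at least 1 of the genes was read in 85 of 127 (66.9%) for ISX-9 and 2 of 138 (1.45%) for DMSO. The difference between the plates, which chose the genes, was present in both settings, and the share itself differed with depth.

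The genes did not form a single group of wells. Of the 139 ISX-9 wells with any of them, 78 had 1, 38 had 2, 17 had 3, 4 had 4 and 2 had 5, and the median depth went from 29138 reads in wells with 1 to 73299 in wells with 3. Nes and Bex4 shared the most in proportion, 13 wells, which is 56.5% of the Nes wells and 26.0% of the Bex4 wells, beside 17.2% of all ISX-9 wells with Bex4. All 13 had at least 30000 reads, a depth at which Bex4 was read in 13 of 17 Nes wells and 41 of all 127 wells. Igfbpl1 was read in 6 of the 13 Twist1 wells (46.2%) and 10 of the 28 Sox11 wells (35.7%), beside 20.3% of all wells. Among wells with at least 30000 reads it was in 5 of 10 Twist1 wells and 9 of 19 Sox11 wells, beside 41 of all 127. Sall4 and Twist1, both transcription factor genes, shared 2 wells. Pearson's r between log levels over the 290 wells, which share a library and differ in depth, was 0.23 for Sall4 with Nes and 0.14 for Sox11 with Igfbpl1, and from -0.07 to 0.08 for every other pair. The value for Sall4 with Nes rests on 4 shared wells.

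The 7 genes differed in how much Neurog3 their wells held. In wells with Igfbpl1, the summed Neurog3 level was 3991 CPM against 2486 CPM in the other ISX-9 wells, in Sox11 wells 4507 against 2736 CPM, and in Twist1 wells 3785 against 2918 CPM. In wells with Mmp2 it was 431 against 3446 CPM, in Nes wells 629 against 3466 CPM and in Bex4 wells 1237 against 4113 CPM. Sall4 wells stood between, at 3106 against 2972 CPM. The Twist1 sum rested on few wells: 3 of the 13 held 92.2% of its Neurog3 reads, the sum without them was 357 CPM, and 3 other wells had a single Neurog3 read. Per well, the median Neurog3 level was 3463 CPM with Sox11, 1641 CPM with Igfbpl1 and with Sall4 and 775 CPM with Twist1, against 138 to 169 CPM in the wells without each of these genes. It was 54.6 CPM with Mmp2 and with Nes and 61.3 CPM with Bex4, against 193 to 213 CPM without. Without the 3 wells with most Neurog3 reads, the sum was 2662 CPM for Sox11 and 1383 CPM for Sall4, each below the wells without the gene. For Igfbpl1 it was 2879 CPM, still above them. The wells without each gene were left whole in this check. Igfbpl1 and Sox11 wells thus held more Neurog3 by sum and by median, but for Sox11 the excess by sum rested on 3 wells. Mmp2, Nes and Bex4 wells held less by both. For Sall4 and Twist1 the size of the difference depended on the measure.

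The genes' own levels were then compared between wells grouped by Neurog3. The ISX-9 plate was divided into 79 wells with no Neurog3 read, 105 with a level below 989.6 CPM, the median of wells with a read, and 106 at or above it; their median depths were 11841, 34851 and 26810.0 reads. Igfbpl1 stood at 5.43 CPM (2.81 to 9.49), 17.2 CPM (14.0 to 20.8) and 59.4 CPM (51.8 to 67.8) in these 3 groups, with 5, 22 and 32 wells that held it. Sox11 stood at 7.24 CPM (4.14 to 11.8) in the first group, had an interval of 7.63 to 12.9 CPM in the second and stood at 45.1 CPM (38.5 to 52.5) in the third, or 35.5 CPM there without its highest well. For both genes, the group with most Neurog3 lay above the others with no overlap of counting intervals. Bex4 went the other way at the top, at 24.4, 35.3 (30.7 to 40.5) and 9.18 CPM (6.36 to 12.8). Mmp2 was at 46.2, 82.9 and 29.2 CPM, which became 36.3, 52.3 and 12.3 CPM without the highest well of each group. Twist1 had 0, 16.5 and 19.2 CPM, in 0, 8 and 5 wells, and without the highest well of each group the last 2 values were 12.1 and 9.63 CPM, in the opposite order. Its absence from the 79 wells without Neurog3 allows up to 1.36 CPM. Sall4 stood at 9.05 CPM (5.53 to 14.0), 15.6 CPM (12.6 to 19.2) and 23.8 CPM (19.1 to 29.3), higher in each successive group. Without the highest well of each group its values were 2.72, 13.1 and 19.8 CPM. Nes, at 14.0, 14.9 and 17.8 CPM, did not differ beyond its counting intervals. Its values without the highest wells were 7.76, 10.5 and 13.0 CPM.

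**Figure D3:**
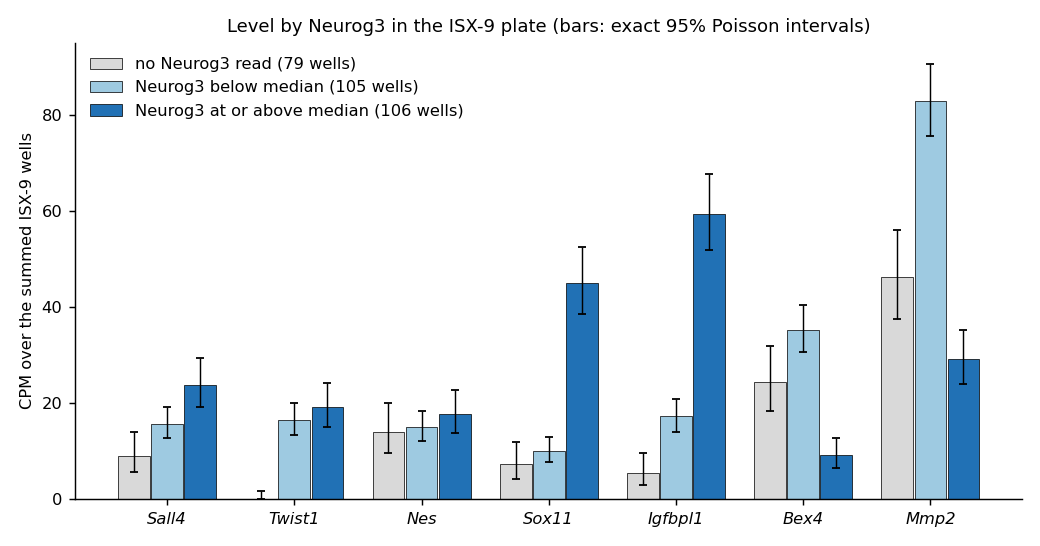
Level of each gene (y axis, CPM over the summed wells) in ISX-9 wells with no Neurog3 read (grey), with Neurog3 below the median of wells with a read (light blue) and at or above it (dark blue); bars carry exact 95% Poisson intervals, which cover counting error only. Sox11 and Igfbpl1 are highest in the dark blue group, Bex4 and Mmp2 lowest there, and Twist1 has no read in the grey group.

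By presence alone, a Neurog3 read was found in all 13 Twist1 wells, in 54 of 59 Igfbpl1 wells (91.5%), 25 of 28 Sox11 wells (89.3%), 43 of 50 Bex4 wells (86.0%), 21 of 25 Sall4 wells (84.0%), 18 of 23 Nes wells (78.3%) and 24 of 33 Mmp2 wells (72.7%), beside 72.8% of all ISX-9 wells. For Twist1 the share was 72.7% requiring 2 reads, 66.7% requiring 5 and 72.5% with wells thinned to 2000 reads. The share in the ISX-9 wells without Twist1 was lower in each of these settings. The Twist1 excess over them was 28.5 percentage points, and 16.8 requiring 2 reads, 19.7 requiring 5, 25.4 at 2000 reads and 15.6 at 10000. Over wells with any of the genes the share was 84.9% (77.8 to 90.4), and over wells with none 61.6% (53.3 to 69.4). Among wells with at least 30000 reads, a depth limit chosen after seeing the data, these shares were 90.6% and 66.7%. The excess over the other ISX-9 wells changed sign for Bex4, from 16.0 percentage points to -16.6 with wells thinned to 2000 reads and -12.9 at 10000. For Nes it was 5.98 percentage points, 8.87 at 2000 reads and -8.95 at 10000, so its sign differed between the depths tried. Between summed wells with and without a Neurog3 read, Twist1 (log2 ratio 2.17), Igfbpl1 (1.88) and Sox11 (1.22) were at least 2-fold higher in the former, 3 of 7 genes, where 4.89% of 12344 genes with at least 20 ISX-9 reads were that much higher. None of the 7 was that much lower, beside 3.44% of genes. Bex4 (0.04), Nes (0.15), Mmp2 (0.39) and Sall4 (0.76) lay between.

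In the group of wells with most Neurog3, Sox11 had its highest level of the 3 groups and Bex4 its lowest. Between wells with and without a Neurog3 read Bex4 was alike, at 25.2 and 24.4 CPM. Each of the 13 Twist1 wells had at least 1 Neurog3 read. These 3 genes are shown by their promoters because NEUROG3 and TWIST1 proteins are both known to bind E-boxes, the letters CANNTG. This pattern is its own reverse complement, so that a match stands on both strands. The RefSeq promoter table (GRCm38.p6, 250 bases before to 50 after the gene start) matched 4 of the 7 genes, Nes, Sox11, Twist1 and Bex4, and not Sall4, Igfbpl1 and Mmp2. E-boxes are in capitals, and each promoter is written 5' to 3' on the strand of its gene. Sox11 lies at chr12:27342669-27342968 on the minus strand, Bex4 at chrX:136138746-136139045 on the plus strand and Twist1 at chr12:33957421-33957720 on the plus strand.
Sox11: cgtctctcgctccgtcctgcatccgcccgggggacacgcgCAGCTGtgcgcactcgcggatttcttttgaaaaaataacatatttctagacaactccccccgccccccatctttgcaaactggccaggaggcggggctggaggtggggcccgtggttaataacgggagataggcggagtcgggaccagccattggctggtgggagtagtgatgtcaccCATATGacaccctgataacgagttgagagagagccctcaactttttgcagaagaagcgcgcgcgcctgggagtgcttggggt
Bex4: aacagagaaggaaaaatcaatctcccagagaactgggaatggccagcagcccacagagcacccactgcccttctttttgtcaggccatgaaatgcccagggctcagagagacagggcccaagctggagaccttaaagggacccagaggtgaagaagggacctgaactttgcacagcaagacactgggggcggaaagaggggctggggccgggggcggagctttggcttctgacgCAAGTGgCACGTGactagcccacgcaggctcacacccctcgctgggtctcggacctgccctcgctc
Twist1: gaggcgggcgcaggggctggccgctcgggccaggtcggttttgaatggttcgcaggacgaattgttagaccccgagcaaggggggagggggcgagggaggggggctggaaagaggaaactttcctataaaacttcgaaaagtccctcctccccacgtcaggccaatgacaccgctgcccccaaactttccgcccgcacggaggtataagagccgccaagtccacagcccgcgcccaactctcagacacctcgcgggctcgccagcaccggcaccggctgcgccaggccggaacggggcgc
Sox11 had 2 E-boxes, CAGCTG and CATATG, and Bex4 had 2 others, CAAGTG and CACGTG, 1 base apart. Twist1 and Nes had none in these 300 bases. Of 32851 promoters in the table, 72.3% held at least 1 E-box and 16.3% held CAGCTG, so a match is common and is a description of the letters only. The C and G content was 58.7% for Sox11 and Nes, 60.0% for Bex4 and 66.0% for Twist1, above the median of 52.7% over the table.

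Tph1 encodes the enzyme that starts serotonin synthesis and marks enterochromaffin cells. It was read in 46.8% of wells with any of the genes and in 46.4% of the rest; thinned to 2000 reads these shares were 28.2% and 32.7%, and the summed Tph1 level was 391 against 709 CPM. The single genes differed. Mmp2 stood at 87.1 CPM (79.6 to 95.1) in the 135 wells with a Tph1 read and 33.0 CPM (28.6 to 37.9) in the 155 without, a log2 ratio of 1.28 that was 0.67 without its highest well. Nes stood at 3.85 CPM (2.41 to 5.83) against 26.8 CPM (22.8 to 31.2), or -1.84 as a log2 ratio and -1.66 without its highest well. Sox11 stood at 11.4 against 29.1 CPM (-1.06, and -0.78 without its highest well). Twist1 stood at 19.3 against 9.52 CPM (0.74, and 1.49 without its highest well). Of the 7 genes, 1 was thus at least 2-fold higher and 2 at least 2-fold lower with Tph1, beside 4.31% and 1.60% of genes; without the highest well of each gene the higher one was Twist1 in place of Mmp2, and Nes alone was that much lower. In the 95 wells with both Neurog3 and Tph1, Mmp2 was at 104 CPM, or 63.8 CPM without its highest well, and Twist1 at 24.6 CPM, while in the 116 with Neurog3 alone Igfbpl1 was at 44.7 CPM, Sox11 at 31.4 CPM and Nes at 26.0 CPM. In the 39 wells with neither, Mmp2 was at 71.3 CPM (55.5 to 90.2) and Nes at 31.0 CPM (20.9 to 44.3), or 49.5 and 16.9 CPM without the highest well. The 40 wells with Tph1 alone had no read of Twist1 or Sox11, which allows up to 2.42 CPM.

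Muc2 reads, which mark goblet cells, were found in 39.6% of wells with any of the genes and 41.7% of the rest, but the former were deeper. Thinned to 2000 reads the shares were 15.5% and 27.9%, and the summed Muc2 level was 375 against 805 CPM. It was lowest in Twist1 wells (9.20 against 545 CPM) and Sall4 wells (26.4 against 575 CPM), and above the other wells with Sox11 (800.4 against 450.5 CPM) and Mmp2 (1207 against 375 CPM). For Sox11 the share of wells with Muc2 at 2000 reads had the opposite order, 18.2% against 22.4%. For Mmp2 it was 27.1% against 21.3%. None of the 7 genes differed 2-fold between the 118 wells with Muc2 and the 172 without, where 2.06% of genes were higher and 3.99% lower by that much. The lowest log2 ratio was that of Igfbpl1, -0.86, at 18.3 against 37.2 CPM, and Sall4 followed at -0.70. Without the highest well of the gene, Twist1 went from -0.39 to -1.08 and Mmp2 from -0.08 to 0.78, so their values in this division rested on a single well.

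Collagen genes, the structural genes of connective tissue, had 39 rows. At least 1 was read in 169 ISX-9 wells (58.3%) and 98 DMSO wells (32.7%), at summed levels of 148 and 43.2 CPM. Of the 39, 6 were at least 2-fold higher in ISX-9 and 0 lower, beside 4.97% and 0.953% of all genes with at least 20 reads. The 39 rows had no such limit, and among genes with at least 1 read 3.92% were that much higher. The 6 include Col1a2, with 97.7% of its ISX-9 reads in 1 well. The most abundant were Col27a1 (39.6 against 2.91 CPM), Col20a1 (20.5 against 21.3 CPM), Col9a2 (11.9 against 2.91 CPM) and Col7a1 (9.83 against 0.610 CPM), none of which is a fibroblast type I or III collagen. These 4 were not higher in the wells of the 7 genes: Col27a1 stood at 28.0 CPM there and 67.4 CPM in the remaining ISX-9 wells.

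Any collagen read was found in 64.0% of wells with at least 1 of the 7 genes and in 53.0% of the others, and among wells with at least 30000 reads in 71.8% and 71.4%. By gene, Twist1 stood at 18.9 CPM (16.1 to 22.1) in wells with a collagen read and 2.64 CPM (1.21 to 5.02) in those without, a log2 ratio of 1.65, or 1.37 without its highest well. Mmp2 stood at 72.3 against 26.7 CPM, a log2 ratio of 1.29, or 0.82 without its highest well. These were 2 of 7 genes at least 2-fold higher, beside 2.81% of genes, and none was that much lower, beside 1.06%. Among deep wells, collagen was read in 36 of 41 Bex4 wells (87.8%) against 64.0% of deep wells without Bex4, and in 63.4% of Igfbpl1 wells against 75.6%.

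The type I collagen genes were rare, and in ISX-9 they were read in wells of the 7 genes that were mostly deep. Col1a1 was read in 5 ISX-9 wells and Col1a2 in 3, together 7 wells. Each of these had a read of at least 1 of the 7 genes, beside 47.9% of all ISX-9 wells and 66.9% of those with at least 30000 reads. Apart from a well of 7171 reads, they had 58400 to 205959 reads. A single well held 97.7% of the 88 Col1a2 reads, together with 63 reads of Mmp2 and 4272 of Chgb. Each of the 7 wells also had Neurog3 (3 to 83 reads) and Epcam (9 to 181 reads). Type I collagen was therefore read together with the epithelial gene Epcam in each of them. Endocrine reads were few in some: the wells with 84945 and 205959 reads had 3 reads of Neurog3 each, and 2 and 7 of Chgb. Col3a1 was not read in any kept well.

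**Figure D4:**
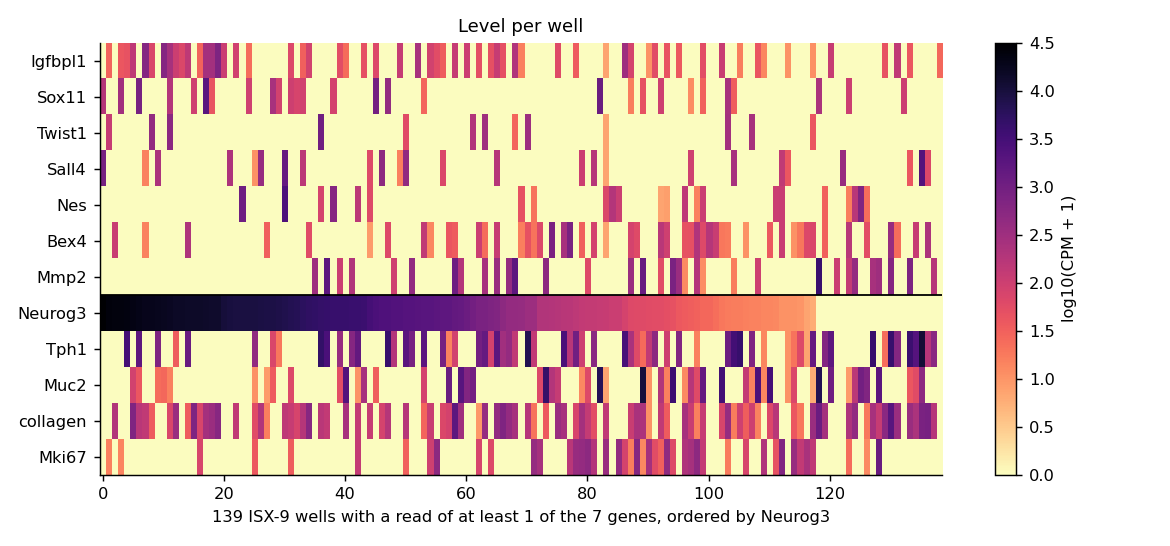
Each column is 1 of the 139 ISX-9 wells with a read of at least 1 of the 7 genes, ordered by Neurog3 from high to low, and each row a gene, or all collagen genes summed; colour gives log10(CPM + 1). Igfbpl1 and Sox11 are frequent at the left, where Neurog3 is high, and Bex4 and Mmp2 at the middle and right, with few wells that hold more than 2 of the 7.

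The identity of the wells was checked by markers. Epcam was read in 136 of the 139 wells with any of the genes (97.8%) and the epithelial cadherin gene Cdh1 in 127, and the summed level of the 8 epithelial markers was 2969 CPM there and 3384 CPM in the other ISX-9 wells. The mesenchymal markers were mixed. Among wells with any of the genes, Tagln, Prrx1 and Dcn had no read, and Pdgfra, Acta2 and Thy1 were each read in 1 well. Fn1 was read in 24 of these wells (17.3%, against 4.64% of the other ISX-9 wells), Pdgfrb in 21 (15.1% against 6.62%), Sparc in 16 (11.5% against 7.28%) and Vim in 46 (33.1% against 25.8%), in wells that were deeper than the others. In CPM, Fn1 stood at 16.7 against 11.3, Pdgfrb at 5.99 against 5.50 and Sparc at 31.0 against 28.4. Lum and Col3a1 had no read in the kept wells of either plate. The summed level of the 12 mesenchymal markers with a read was 159 CPM in wells with the genes (median well 55.2, highest 1644) and 206 CPM in the others (median 0, highest 2905), and 83.7 and 156 CPM of these were Vim, which encodes the filament vimentin. Nearly all of these wells thus held epithelial transcripts, some together with mesenchymal ones, and "mesenchymal" is used here for what Twist1 and Mmp2 are known for.

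Markers of immune and endothelial cells were near 0. The 4 immune markers with a read summed to 0.678 CPM in ISX-9 and 1.76 CPM in DMSO, with Ptprc at 0 in ISX-9, and the 3 endothelial markers to 1.61 and 0.813 CPM. Of the neuron and glia markers, S100b had no ISX-9 read. Their list summed to 127 CPM in wells with the genes and 179 CPM in the others, and to 37.8 CPM in DMSO, most of it Tubb3 (85.2 against 12.2 CPM), a tubulin of neurons, and Elavl4 (43.0 against 22.2 CPM), an RNA-binding protein of neurons. The part of such cells in the results was not tested beyond these values.

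Reads of the cycling gene Mki67 were more frequent with some of the 7. It was chosen for this comparison after seeing the data. Mki67 was read in 32.4% of wells with any of the genes and in 10.6% of the others, and among wells with at least 30000 reads in 44.7% and 23.8%. Bex4 stood at 36.8 CPM (32.0 to 42.2) in the 61 wells with Mki67 and 14.3 CPM (11.5 to 17.6) in the 229 without, a log2 ratio of 1.12, and 0.99 without its highest well. Twist1 stood at 6.38 against 21.4 CPM (-1.22, and -0.87 without its highest well). These were 1 gene higher and 1 lower by 2-fold, beside 5.24% and 5.87% of genes. Nes stood at 17.7 against 13.8 CPM (0.27, and -0.05 without its highest well). Sall4 (-0.31), Sox11 (-0.52), Mmp2 (-0.81) and Igfbpl1 (-0.90) were lower in wells with Mki67. Without the highest well of each gene these values were -0.52, -0.21, -0.15 and -0.65, so most of the Mmp2 difference rested on 1 well. The counting intervals of Sall4 overlapped, at 11.6 to 18.0 and 15.9 to 23.0 CPM. Thinned to 2000 reads, Mmp2 was read in 5.81% of wells with Mki67 and 5.32% of those without, the opposite order. By presence among the deep wells, Mki67 was read in 53.7% of Bex4 wells against 30.2%, and in 70.6% of Nes wells against 32.7%. Wells with Mki67 had a median of 76722 reads and those without 16309. Thinned to 2000 reads, the share with Mki67 was 9.86% against 2.02% for wells with any of the genes, 20.2% against 4.54% for Nes and 16.7% against 3.50% for Bex4.

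**Figure D5:**
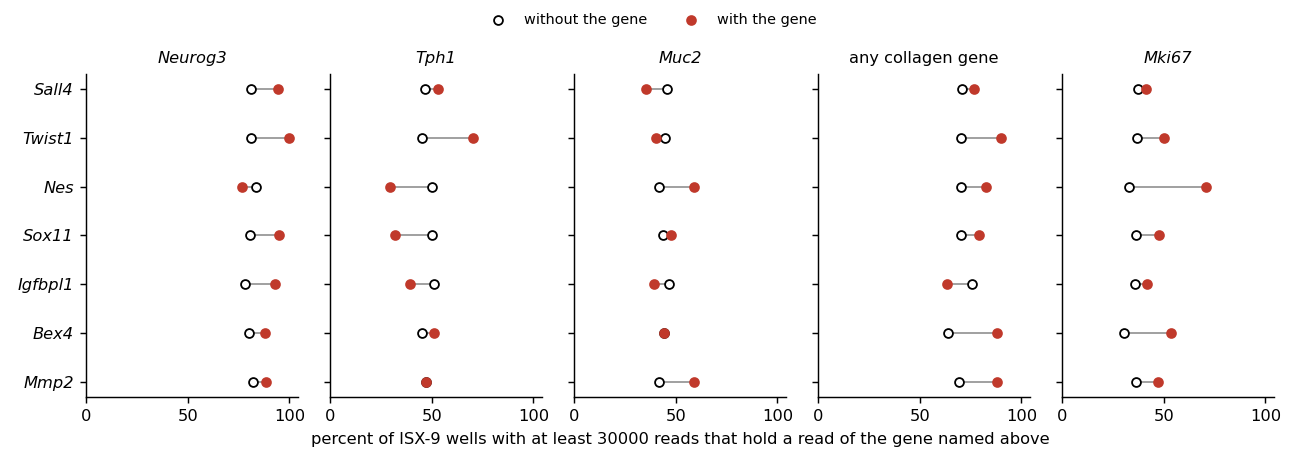
Percent of ISX-9 wells with at least 30000 reads (x axis) that hold a read of Neurog3, Tph1, Muc2, any collagen gene or Mki67 (panels), among wells with a read of the gene in the row (red) and those without (open). Mki67 is more frequent with Nes (70.6% against 32.7%) and Bex4, Tph1 less frequent with Nes and Sox11, and collagen more frequent with Bex4 and Mmp2.

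The genes whose level over the 290 wells was most like each gene differed from gene to gene. For Bex4 they were Prim2 (Pearson's r 0.54), Sac3d1 (0.46) and Tk1 (0.45); Prim2 and Tk1 encode a primase subunit and a thymidine kinase used in DNA replication. For Nes they were Zfp942 (0.46), Dapk2 (0.44) and Nutf2 (0.40), for Sall4 Zfp958 (0.44), Ccdc28b (0.40) and Ankrd26 (0.36), and for Sox11 Ubxn7 (0.41), Rpp25l (0.40) and Dus2l (0.33). For Igfbpl1 they were Ttyh2 (0.35), Epb4.2 (0.35) and Mut (0.34), and for Mmp2 Ago4 (0.37), Rab7l1 (0.35) and Kbtbd11 (0.33). The values are the highest of 9053 genes compared in sparse counts from 1 library, and no gene was among the first 3 of more than 1 of the 7. Twist1, in fewer than 20 wells, was not compared. With Neurog3, r was 0.28 for Igfbpl1, 0.19 for Sox11, 0.09 for Sall4, 0.04 for Nes, -0.09 for Mmp2 and -0.12 for Bex4.

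Relatives of the 7 genes were a list of 28, of which 23 had a row, 19 with a positive and 4 with a negative log2 ratio. Of these, 6 were at least 2-fold higher and 0 lower, with a median of 0.43, while among 9106 genes whose mean reached 10 CPM, 411 were that much higher and 108 lower, with a median of 0.15. The 23 relatives had no such limit on their mean. The binding protein gene Igfbp2 was highest, at 69.0 against 4.34 CPM (log2 ratio 2.99) in 111 and 11 wells. Timp3, an inhibitor of matrix metalloproteinases, stood at 53.2 against 10.4 CPM (1.92). The matrix enzyme genes with a row on this list, Mmp7 (0.27), Mmp14 (0.43) and Mmp15 (-0.44), showed smaller ratios. With Mmp2 these make 4 genes, of which only Mmp2 was near absent in DMSO. Mmp17, a matrix enzyme gene outside the list, was near absent there too. It stood at 10.8 against 0.542 CPM, with reads in 15 ISX-9 wells and 1 DMSO well. Within the Bex family, Bex1 had a ratio of 1.25 and Bex2 of -0.15, and Bex2 was read in 57 DMSO wells where Bex4 was read in 1. The close relative of Sox11, Sox4, was already at 277 CPM in DMSO and at 459 CPM in ISX-9 (0.72), and Sox12 at 30.4 and 45.6 CPM. Sall2 (1.41), Igfbp5 (1.11) and the neuronal filament gene Ina (1.40) were the remaining relatives past 2-fold, and Igfbp4 was at 700.1 against 366 CPM (0.93).

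Of 18 fetal and oncofetal genes, 17 had a positive log2 ratio, 7 were at least 2-fold higher and 1 lower, with a median of 0.73. Over 13223 genes with at least 20 reads, 8837 had a positive ratio, 4.97% were 2-fold higher and 0.953% lower, with a median of 0.15, which also stands beside the next lists. The lists themselves had no such read limit. The growth factor gene Igf2 stood at 135 against 3.19 CPM (4.10) and the imprinted RNA H19 at 26.5 against 0.0678 CPM (2.64), while Afp, the gene of the fetal serum protein alpha-fetoprotein, stood at 3.81 against 434 CPM (-5.64). Igf2 was read in 71 of the 139 wells with the 7 genes and in 42 of the 151 others, at 130.1 and 148 CPM. Afp was thus the exception in sign on this list. Of 10 regulators and markers of the transition from epithelium to mesenchyme, 2 were at least 2-fold higher, Fn1 (15.1 against 0 CPM), the fibronectin gene, and Cdh2 (5.76 against 0.0678 CPM), the neural cadherin gene, which was named after its value was seen. Snai1 and Snai2 had 4 and 10 ISX-9 reads against 4 and 7 DMSO reads. Zeb1 had 26 against 6 reads, Zeb2 25 against 0 and Foxc2 19 against 0, in 4, 3 and 2 ISX-9 wells. These last 3 genes were named after their values were seen. Cdh1 stood at 433 against 506 CPM (-0.22), Vim at 105 against 112 CPM (-0.09) and Tcf4 at 147 against 84.2 CPM (0.77). The mesenchymal marker list had 3 genes at least 2-fold higher, Sparc (30.2 against 1.56 CPM), Fn1 and Col1a2, and a median of 0.36.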

How the data were processed

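For each plate, the authors deposited raw read counts of genes (rows) in 384 wells (columns). Per the submitters' processing notes, the tools and builds include BWA (no version) and hg19, a human build, yet the rows carry mouse symbols and a chromosome. A counting rule was not given in the sources used here. Chromosomes are therefore printed without coordinates for the counts. A gene without a row in 1 plate was set to 0 there. Counts are of reads: the molecular barcode has 4 bases, or 256 combinations, and the largest value is 61032. Doublets were not called. Rn45s stayed in the totals. Wells of 1 library per treatment allow no test, so none was made.

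The 7 genes and all lists were chosen with earlier results of these data known. Named are the 7 genes, Neurog3, Tph1, Muc2, the 4 collagen genes highest in ISX-9, up to 3 genes per list with the largest absolute log2 ratio and a mean of at least 10 CPM, relatives, the 3 genes most like each of the 7 (Pearson, log2 of reads per 10000 plus 1, genes in at least 10% of ISX-9 wells) and cell type markers. Mki67, wells with at least 30000 reads and levels in ISX-9 well groups without the highest well were added after seeing the data. Shares after thinning are expected values, computed without drawing. Calculations used Python 3.11.15, pandas 2.3.3, numpy 2.4.6 and scipy 1.17.1 and were tested on simulated data.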

Additional observations from a re-analysis of the deposited data

Results flagged for a closer look

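Reads of 3 of the genes also appeared in wells below the depth limits, which no comparison above uses. In the 94 ISX-9 wells left out, Igfbpl1 had 11 reads, all in 1 well, Bex4 had 5 reads in 2 wells and Nes had 1 read. In the 84 DMSO wells left out, none of the 7 genes had a read. The counts of Igfbpl1 and Bex4 were above the 3 reads taken as the floor.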

How the results depend on the processing

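No paired analysis was possible because each treatment had 1 library, and for the same reason no replicate could be left out. Of 330 alternative values, 235 stayed within the limits set for them, 86 moved and 9 changed sign. All 84 alternative log2 ratios of the 7 genes but 1 were at least 1; the exception was Twist1 at 0.00 in wells without a Neurog3 read, where neither plate had one. With a pseudocount of 1 CPM in place of 5 the ratios ran up to 5.22 (Mmp2), with 10 CPM down to 1.28 (Twist1). Median-of-ratios scaling shifted ratios by -0.17 and spike-in scaling by -0.25, and the count of genes at least 2-fold higher was 7 under both.

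The share of wells moved with depth and with the reads required. The share of ISX-9 wells with any of the genes, 47.9%, was 54.5% with at least 5000 reads and 1000 genes per well, 37.2% over all 384 wells, 39.3% requiring 2 reads, 29.7% requiring 5 reads and 19.2% at 2000 reads; in DMSO the last was 0.326%. The share of these wells with Neurog3, 84.9%, was 70.2% requiring 2 reads, 64.0% requiring 5, 56.3% at 2000 reads and 68.2% at 10000. Its excess over the other wells, 23.3 percentage points, was 32.0 over all 384 wells, 10.8 at 2000 reads and 11.2 at 10000. For Nes (5.98) the excess turned to -8.95 at 10000 reads and -7.17 in wells with at least 30000 reads. For Bex4 (16.0) it turned to -5.10 requiring 5 reads, -16.6 at 2000 and -12.9 at 10000. For Mmp2 (-0.0354) it was 9.76 over all wells, 5.48 requiring 2 reads, 0.0354 requiring 5 and 6.42 in wells with at least 30000. The cause of these shifts was not tested.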

Other observations

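Among the 142 genes read in at least 10 ISX-9 wells and at most 1 DMSO well, Igfbpl1 ranked 1 by number of ISX-9 wells, Bex4 4, Mmp2 7, Sox11 13, Sall4 16, Nes 17 and Twist1 86. The genes between them at the top, named here after their values were seen, were Ppp2r2c, a regulatory subunit of a phosphatase (55 wells), H2-Ab1, a class II histocompatibility gene (54), Cyfip2, a regulator of actin (46), and Gpc3, a cell surface proteoglycan of fetal tissues (33). The reverse pattern was led by the hormone gene Gip (31 DMSO wells and 0 ISX-9 wells), Sprr1a (22 and 1), Dlgap1 (19 and 1) and the stem cell gene Olfm4 (17 and 0). No hypothesis was tested on these.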
